A study of Mus musculus with 14 samples.

Results

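The presynaptic release machinery was followed in mouse cerebral cortex as 53 genes of the 23412 in the deposited table. They were chosen by name as genes of the synaptic vesicle, the SNARE proteins, the active zone and vesicle endocytosis, and each matched exactly 1 gene of the table. Libraries came from control mice, written Rpl22flox/flox;CamKCre+ in the labels, and from mice that carry the same alleles and lack Fmr1, written Fmr1X-Y; Rpl22flox/flox;CamKCre+ and called KO here. Both groups thus carry a floxed Rpl22 and a Cre driven by a CamK promoter, which is active in excitatory forebrain neurons. The labels' protocols name brain lysates as the source of both assays and name no purification of tagged ribosomes. The age of the mice is not given in the sources used here. Messenger RNA was sequenced from 4 controls (mice 1, 3, 6 and 8) and 4 KO animals (mice 2, 4, 5 and 7). Ribosome profiling reads the pieces of mRNA that a ribosome protects when the rest is digested (footprints), here from 3 controls (mice 1, 3 and 9) and 3 KO animals (mice 2, 4 and 10). Values per mouse are given in these orders throughout, as CPM, a library's counts scaled to a common total, after scaling by TMM factors.

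At a nerve terminal, vesicles filled with transmitter dock at the active zone, a protein mesh built on very large scaffolds such as bassoon and piccolo. SNARE proteins on the vesicle and on the plasma membrane zip together to fuse them, calcium sensors of the synaptotagmin family trigger the fusion, and endocytic proteins retrieve the membrane. FMRP, the product of Fmr1, binds mRNAs on polyribosomes, and the mRNAs of bassoon and piccolo are among those reported as bound in mouse brain. The series concerns translation elongation, and the members range from very long active-zone proteins to short vesicle proteins.

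Total counts were 8847547 to 11371851 per RNA library and 4124065 to 6033030 per footprint library. Fmr1 matched the labels, with 18.1 to 23.4 CPM in KO RNA against 71.4 to 90.0 CPM in controls, and 5.84 to 8.56 CPM against 111 to 115 CPM in footprints. The RNA libraries of KO mice 2, 4 and 7 lay closer together than other RNA libraries of 1 genotype, their pairwise chi-square divided by its degrees of freedom being 1.18 to 1.32, against 1.99 for control mice 1 and 3 and at least 4.03 for the remaining pairs. Footprint libraries of 1 genotype all lay about as close, at 1.15 to 1.42. The variation between libraries beyond counting, as edgeR estimates it, was 0.0211 in footprints and 0.077 in RNA. Footprint p-values thus rest on a small spread between libraries. All 6 markers of excitatory neurons were present in every group, as were all 6 of each of the inhibitory neuron, oligodendrocyte, astrocyte, microglia and endothelial lists. The excitatory markers summed to 3137 to 3411 CPM in KO RNA against 2495 to 2768 CPM in control RNA, and to 5366 to 5629 CPM against 5576 to 5721 CPM in footprints. The oligodendrocyte markers summed to 4271 to 4598 CPM in KO RNA against 4888 to 5331 CPM in controls, and to 8025 to 8067 CPM against 8213 to 8372 CPM in footprints. Footprint sums were also apart for astrocytes, at 3012 to 3059 CPM in KO mice against 3207 to 3236 CPM, and for inhibitory neurons, at 1698 to 1724 CPM against 1625 to 1671 CPM. Microglial and endothelial sums overlapped in both assays. Abundant genes weigh most in such sums, and single markers did not all move with them. In footprints 3 excitatory, 3 inhibitory and 1 oligodendrocyte marker were called higher, and 1, 1 and 3 lower. Of the astrocyte markers 2 were called lower there and 0 higher. In RNA 2 excitatory markers were called higher and 0 lower, and 0 oligodendrocyte markers higher and 1 lower. The 12 immediate early genes listed, which neuronal activity induces and which were all called higher in both assays, summed to 525 to 1209 CPM in KO RNA against 279.9 to 578 CPM (KO mouse 5 at 525 and the other KO mice at 1172 to 1209; control mouse 8 at 578 and the other controls at 279.9 to 289), and to 2597 to 2657 CPM against 691 to 741 CPM in footprints. Control mouse 8 also lay farthest from control mice 1 and 3, at a chi-square per degree of 10.6 and 11.8, and without it 10 members and 13.2% of all genes were called in mRNA. The part of these shifts in the results below was not tested, and in whole tissue fewer cells of a type cannot be told apart from less RNA per cell.

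The promoters of 6 members on which the results turn are shown first. Bassoon, piccolo and synapsin 1 had mRNAs that rose together in KO cortex, the complexins 1 and 2 had footprints that fell alike, and Napa had the largest rise in footprints. The sequences are the 250 bases before the annotated start, from RefSeq on build GRCm38.p6, on the gene's own strand, with matches to the motifs named next in capitals.
Bsn, chr9:108190384-108190633, minus strand: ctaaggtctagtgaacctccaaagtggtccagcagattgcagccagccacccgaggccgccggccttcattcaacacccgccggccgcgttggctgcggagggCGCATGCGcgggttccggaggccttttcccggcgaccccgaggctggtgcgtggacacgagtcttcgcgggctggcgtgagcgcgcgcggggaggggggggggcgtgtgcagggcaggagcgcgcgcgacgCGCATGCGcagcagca
Pclo, chr5:14514668-14514917, plus strand: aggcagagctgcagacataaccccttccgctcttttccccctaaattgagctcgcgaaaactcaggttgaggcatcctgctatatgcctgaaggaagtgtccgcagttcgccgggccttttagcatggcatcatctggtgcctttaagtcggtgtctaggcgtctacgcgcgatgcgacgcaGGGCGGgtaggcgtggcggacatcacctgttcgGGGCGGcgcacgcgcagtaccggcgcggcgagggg
Syn1, chrX:20920919-20921168, minus strand: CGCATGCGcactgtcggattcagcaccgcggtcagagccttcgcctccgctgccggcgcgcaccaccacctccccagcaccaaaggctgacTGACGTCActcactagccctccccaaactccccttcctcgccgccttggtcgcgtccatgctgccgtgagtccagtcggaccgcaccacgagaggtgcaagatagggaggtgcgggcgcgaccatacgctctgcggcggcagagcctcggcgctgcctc
Cplx1, chr5:108550028-108550277, minus strand: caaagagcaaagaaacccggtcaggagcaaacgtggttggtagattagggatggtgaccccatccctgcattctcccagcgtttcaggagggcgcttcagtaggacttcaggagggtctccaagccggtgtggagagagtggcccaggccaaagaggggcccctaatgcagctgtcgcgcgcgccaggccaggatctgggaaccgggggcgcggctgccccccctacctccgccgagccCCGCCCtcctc
Cplx2, chr13:54302306-54302555, plus strand: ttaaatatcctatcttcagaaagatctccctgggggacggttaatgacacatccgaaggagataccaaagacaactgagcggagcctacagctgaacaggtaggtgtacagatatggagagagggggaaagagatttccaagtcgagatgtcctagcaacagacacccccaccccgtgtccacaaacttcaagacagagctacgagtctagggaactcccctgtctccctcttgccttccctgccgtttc
Napa, chr7:16098330-16098579, plus strand: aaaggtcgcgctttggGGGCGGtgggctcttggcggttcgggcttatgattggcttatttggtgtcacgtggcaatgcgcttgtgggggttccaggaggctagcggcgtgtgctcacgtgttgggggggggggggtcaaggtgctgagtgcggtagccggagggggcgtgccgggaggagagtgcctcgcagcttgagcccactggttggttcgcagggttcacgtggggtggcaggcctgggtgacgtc

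Of the 53 members, 40 had a promoter in the RefSeq table. The windows searched ran from 250 bases before to 50 bases after the start, on both strands, and a gene with several starts counted once. The Sp1 box GGGCGG stood in 31 of the 40 members (77.5%), against 38.2% of all 27025 genes with a promoter. The cyclic AMP response element TGACGTCA stood in 3 members, Napa, Sh3gl2 and Syn1, and in 2.03% of all genes. The core of the NRF1 motif, CGCATGCG, stood in Bsn, Stxbp5 and Syn1, and in 2.07% of all genes, and Bsn holds it 2 times in the stretch above. The TATA box TATAAA stood in Rab3b and Sv2b, and in 15.7% of all genes. The members' promoters were rich in G and C, with a median of 65.5% against 53.3% in all genes, and their median number of CpG pairs was 20.5 against 8. Complexin 2 differed from the other 5 shown, with 50.8% G and C and 7 CpG pairs in the stretch shown (61.2% to 71.6% and 15 to 32 in the others) and no match to any of the 4 motifs. The Napa match to the response element runs past the stretch shown. None of the 4 motifs contains another, and a match describes letters, not binding.

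Genotype effects were tested over all genes with edgeR, and a gene with an adjusted p under 0.05 is called. Unless another fit is named, calls are those of edgeR with TMM scaling, all libraries and no block. All 53 members passed the filter on low counts in both assays. In mRNA, 7 members were called (13.2%, against 7.51% of the 13507 genes tested), 4 higher (against 3.58%) and 3 lower (against 3.94%) in KO mice. In footprints, 30 members were called (56.6%, against 25.7% of 12158 genes), 7 higher (13.2%, against 12%) and 23 lower (43.4%, against 13.7%). In footprints relative to mRNA (translational efficiency, TE, the interaction of genotype and assay), 9 members were called (17.0%, against 7.44% of 12145 genes), 2 higher (against 3.22%) and 7 lower (against 4.22%). Members are abundant, and abundant genes are called more often. At an average of 100 CPM or more in footprints, 25 of 39 members were called (64.1%, against 56.0% of 2182 genes), so the total lay near the background of abundant genes, while 18 were called lower (46.2%, against 32.7%). In mRNA at the same minimum, 6 of 39 members were called (15.4%, against 10.4% of 2539 genes), 3 of them lower (7.69%, against 5.99%). No share of abundant genes was taken for TE, so TE shares here and below are set beside all genes only. The median log2 fold change of the members was 0.026 in mRNA, -0.070 in footprints and -0.10 in TE, beside -0.0010, 0.0061 and -0.011 over all genes tested.

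These counts moved with the scaling and with the libraries. On plain library sizes 19 members were called in footprints, 11 higher and 8 lower, in place of 7 higher and 23 lower, while 28.3% of all genes were called. DESeq2 called 18 (and 14.8% of all genes), all among the 30, of which 13 were lower. In mRNA, 0 members were called by edgeR when the counts of KO mice 2, 4 and 7 were added up, and those of control mice 1 and 3 likewise, with 11 at an unadjusted p under 0.05 and 0.263% of all genes called. DESeq2 on the separate libraries called 10 (8.45% of all genes). With mice 5 to 8 alone 2 were called (0.423% of all genes), and 4 (2.74% to 3.77% of all genes) without mouse 2, 4, 6 or 7. With mice 1 to 4 alone 28 were called (24.2% of all genes), 13 higher and 15 lower. These were the 7 above, 9 others higher (Syt3, Syt4, Syt6, Syt7, Syt13, Snap91, Napa, Rims1 and Dnm1) and 12 others lower (Synpr, Syt11, Snap25, Nsf, Napb, Rab3c, Erc1, Unc13a, Unc13b, Cplx1, Amph and Cadps). In that fit the spread within a genotype comes only from the close libraries, mice 1 and 3 and mice 2 and 4. Its p-values, here and below, rest on that spread. Each RNA library has a further column of counts, with the suffix exon, and the mRNA change of 13 of the 53 members had the other sign there, none of them called there. Mice 1 to 4 were in both assays. With the mouse number as a block, TE calls rose to 17 (4 higher, 13 lower), of which 8 were among the 9, and all genes called to 15.1%. Because mice 5 to 10 were in 1 assay only, this fit takes the interaction from mice 1 to 4.

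**Figure D1:**
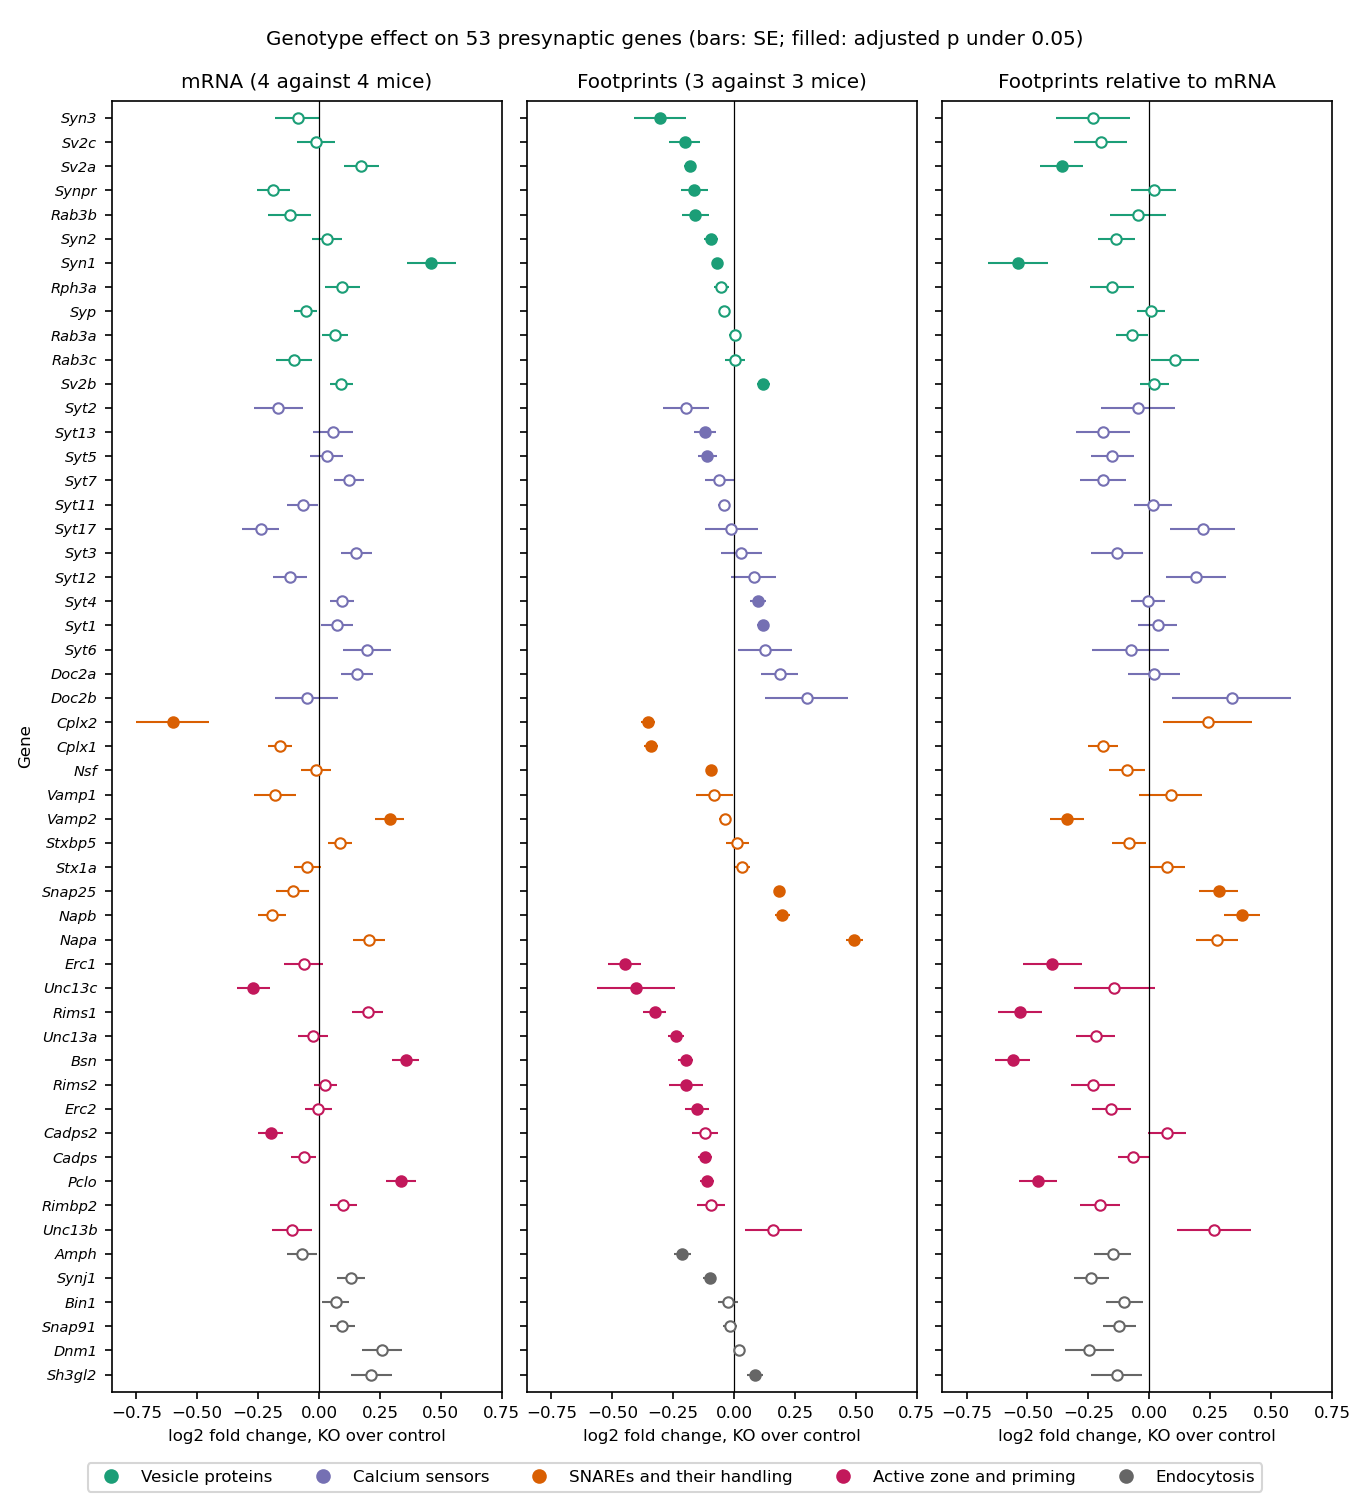
Log2 fold change of KO over control for the 53 genes, with 1 row per gene and bars for the SE, in mRNA, in footprints and in footprints relative to mRNA. Filled points passed an adjusted p of 0.05. In the middle panel 11 of 12 active-zone genes and 9 of 12 vesicle genes lie to the left of 0, and in the right panel 10 and 8.

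No active zone or priming gene was called higher in footprints. Footprints fell for 9 of the 12, and the other 3 were not called: Rimbp2 (-0.095), Cadps2 (-0.12) and Unc13b (0.16), given as log2 changes, the last being the only one of the 12 above 0. The share called lower was 13.7% of all genes and 32.7% of genes at 100 CPM or more. Cadps2 was called lower without KO mouse 2 (adjusted p = 0.0448, edgeR) and without control mouse 9 (0.0421). The median log2 change of the 12 was -0.17 in footprints, -0.014 in mRNA and -0.21 in TE. TE fell for 4 of them, Bsn, Pclo, Rims1 and Erc1 (33.3%, against 4.22% of all genes called lower), and rose for none. On plain library sizes 4 of the 9 falls in footprints were still called, those of Bsn, Rims1, Erc1 and Unc13a.

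Bsn encodes bassoon, a giant scaffold that organises the active zone. Its mRNA was at 614, 586, 558 and 534 CPM in controls and at 739, 717, 765 and 715 CPM in KO mice. Every KO library lay above every control library, a rise of 0.36 ± 0.055 (SE, adjusted p = 0.00212, edgeR) on the log2 scale. Its footprints were at 447, 463 and 477 CPM in controls and at 403, 408 and 399.7 CPM in KO mice, again without overlap but in the opposite order, a fall of 0.20 ± 0.032 (SE, adjusted p = 2.13e-07, edgeR). Libraries not overlapping between genotypes occurred in 15.1% of all genes in mRNA and 37.3% in footprints, and in 15 (28.3%) and 32 (60.4%) of the members. TE of Bsn fell by 0.56 ± 0.071 (SE, adjusted p = 4.89e-05, edgeR), to 67.8% of control. The mRNA call was lost with the close RNA libraries summed (adjusted p = 0.100, edgeR), with a log2 change of 0.40 there, and the TE call held under all 19 alternatives.

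Pclo encodes piccolo, the close relative of bassoon. The mRNA stood at 773, 783, 700.1 and 648 CPM in controls and at 939, 932, 888 and 905 CPM in KO mice. It repeated the pattern of Bsn, with every KO library above the controls and a rise of 0.34 ± 0.063 (SE, adjusted p = 0.00634, edgeR) on the log2 scale. The footprints stood at 593, 586 and 586 CPM in controls and at 539, 539 and 554 CPM in KO mice, all KO libraries below the controls, a fall of 0.11 ± 0.028 (SE, adjusted p = 0.00116, edgeR). On plain library sizes the footprint value was -0.053 and was not called (adjusted p = 0.156, edgeR). TE fell by 0.46 ± 0.080 (SE, adjusted p = 0.000982, edgeR), a call that held under all 19 alternatives. The mRNA call was lost with the close libraries summed (adjusted p = 0.180, edgeR) and with mice 5 to 8 alone (0.0505), with rises of 0.36 and 0.41.

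Rims1 encodes a scaffold that links vesicles to calcium channels. In RNA-seq it measured 407, 406, 454 and 472 CPM in controls and 494, 481, 548 and 475 CPM in KO mice, without overlap, with a log2 change of 0.20 ± 0.065 (SE, adjusted p = 0.0762, edgeR) that was called without control mouse 8 (adjusted p = 0.0154) and with mice 1 to 4 alone. Footprints were at 194, 194 and 183 CPM in controls and at 157, 156 and 144 CPM in KO mice, below every control, a fall of 0.33 ± 0.047 (SE, adjusted p = 1.48e-08, edgeR). TE fell by 0.53 ± 0.091 (SE, adjusted p = 0.000792, edgeR), and both calls held under every alternative run. Its paralog Rims2 had a smaller fall in footprints of 0.20 ± 0.070 (SE, adjusted p = 0.0268, edgeR), which was lost on plain library sizes, with DESeq2 and without mouse 2, 3, 4 or 10 (adjusted p between 0.0537 and 0.417), and without control mouse 3 its log2 change was -0.099. Its TE was called lower with the mouse number as a block (-0.34, adjusted p = 0.00496, edgeR) and without control mouse 9 (-0.31, adjusted p = 0.0334).

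Erc1 encodes ELKS, another scaffold of the cytomatrix. Its mRNA was at 109.8, 112, 91.9 and 86.9 CPM in controls and at 91.6, 98.6, 101 and 92.3 CPM in KO mice, and the groups overlapped, with a log2 change of -0.062 ± 0.080 (SE, adjusted p = 0.691, edgeR). With mice 1 to 4 alone it was -0.21 (adjusted p = 0.00872), and in the exon columns 0.0098. Footprints were at 97.9, 89.4 and 93.4 CPM in controls and at 65.1, 74.1 and 65.5 CPM in KO mice, the largest fall among the members at 0.45 ± 0.067 (SE, adjusted p = 4.07e-08, edgeR), to 73.2% of control. TE fell by 0.40 ± 0.12 (SE, adjusted p = 0.0467, edgeR), a call lost without mouse 1, 2, 4, 5, 6, 7, 9 or 10, on plain library sizes, without the filter, with the title prefix as a block and with the mouse number as a block, where the log2 change was -0.21 (adjusted p over these between 0.0524 and 0.151, edgeR). Footprints of the paralog Erc2 fell by 0.15 ± 0.050 (SE, adjusted p = 0.0166, edgeR), which was lost without mouse 1, 3 or 10, with DESeq2 and on plain library sizes (adjusted p between 0.0513 and 0.196).

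The Unc13 genes encode the Munc13 priming factors. Unc13a, the main form at excitatory synapses, fell in footprints by 0.24 ± 0.032 (SE, adjusted p = 2.24e-09, edgeR) with an mRNA change of -0.025 that was not called. With mice 1 to 4 alone, the mRNA change was -0.14 (adjusted p = 0.00480, edgeR). Unc13c mRNA was at 123, 129, 137 and 139 CPM in controls and at 111, 101, 121 and 105 CPM in KO mice, every KO library below the controls, a fall of 0.27 ± 0.066 (SE, adjusted p = 0.0245, edgeR). It was no longer called without mouse 2, 4, 6 or 7, with mice 5 to 8 alone and with the close libraries summed (adjusted p between 0.0712 and 0.339, edgeR). Its footprints, the scarcest of this role, were at 18.0, 14.4 and 14.9 CPM in controls and at 12.8, 12.3 and 10.3 CPM in KO mice, a fall of 0.40 ± 0.16 (SE, adjusted p = 0.0497, edgeR) that was lost without mouse 1, 2, 4 or 10, without the filter, with DESeq2 and on plain library sizes (adjusted p between 0.0542 and 0.237).

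Cadps and Cadps2 encode the CAPS priming factors for dense-core and synaptic vesicles. Cadps2 mRNA was at 299, 296, 302 and 296 CPM in controls and at 259, 250.3, 280.1 and 252 CPM in KO mice, without overlap, a fall of 0.20 ± 0.052 (SE, adjusted p = 0.0330, edgeR). The call was lost without mouse 1, 2, 3, 4, 6 or 7, with mice 5 to 8 alone and with the close libraries summed (adjusted p between 0.0590 and 0.485, edgeR). Cadps footprints fell by 0.12 ± 0.030 (SE, adjusted p = 0.00110, edgeR), and on plain library sizes its value was -0.061, not called.

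**Figure D2:**
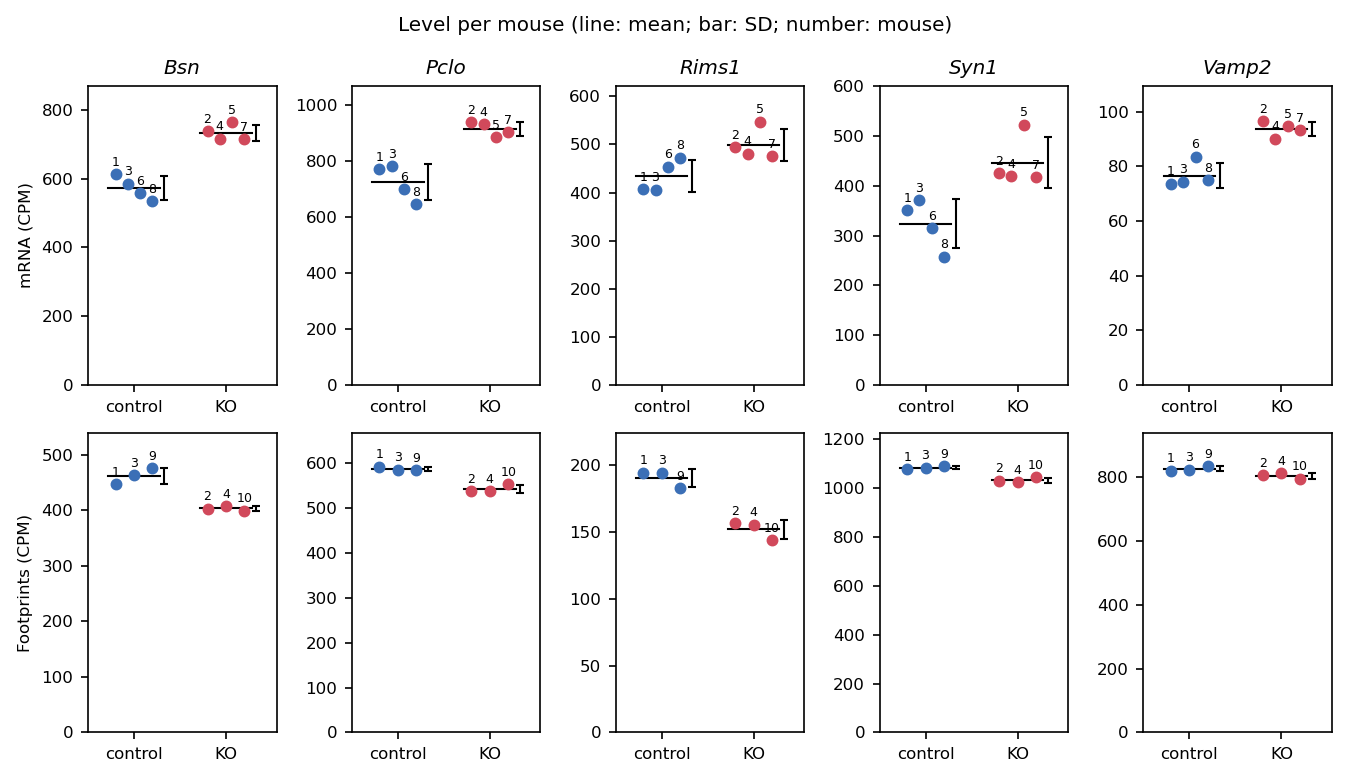
CPM per mouse for Bsn, Pclo, Rims1, Syn1 and Vamp2 in mRNA (top) and footprints (bottom), with points numbered by mouse, a line for the mean and a bar for the SD. The KO points sit above the controls in the mRNA of all 5 genes and below them in the footprints of all 5.

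Vesicle proteins were called in both directions. Of 12 members, footprints fell for 7 (Syn1, Syn2, Syn3, Synpr, Sv2a, Sv2c and Rab3b) and rose for Sv2b. The 8 called are 66.7% of the 12, against 25.7% of all genes and 56.0% of genes at 100 CPM or more. The median was -0.082 in footprints, 0.011 in mRNA and -0.10 in TE. Rab3a, Rab3c, Rph3a and Syp were called in none of the 3 comparisons. With the mouse number as a block, Rab3c was called higher in TE (0.30, adjusted p = 0.00201, edgeR). Sv2a was the only one of the 7 falls still called on plain library sizes, where Rab3a was called higher (log2 change 0.062).

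Syn1 encodes synapsin 1, which tethers vesicles in the reserve pool. The mRNA stood at 351, 372, 316 and 258 CPM in controls and at 425, 419, 523 and 418 CPM in KO mice. KO mouse 5 stood highest and control mouse 8 lowest, and the groups did not overlap, a rise of 0.46 ± 0.10 (SE, adjusted p = 0.0144, edgeR) on the log2 scale. With the exon columns, described with Cplx2, Syn1 was called higher too, and there KO mouse 5, at 325 CPM, was not above the other KO mice (326 to 339.5 CPM). The call was lost without control mouse 6 (adjusted p = 0.0521, edgeR) and with the close libraries summed (adjusted p = 0.100). Within the samples whose titles share a prefix, the log2 difference was 0.28, 0.17 and 0.71 for mouse 2 against 1, mouse 4 against 3, and mice 5 and 7 against 6 and 8. In ribosome profiling it measured 1078, 1083 and 1089 CPM in controls and 1030.2, 1023 and 1043 CPM in KO mice, a narrow fall of 0.070 ± 0.023 (SE, adjusted p = 0.0167, edgeR) that was lost without KO mouse 4, with DESeq2 and on plain library sizes (log2 change there -0.010, adjusted p over these between 0.0552 and 0.784). TE fell by 0.54 ± 0.12 (SE, adjusted p = 0.00922, edgeR) and was called under all 19 alternatives, with log2 changes from -0.67 to -0.31, the last with the mouse number as a block.

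Syn2 footprints fell by 0.095 ± 0.027 (SE, adjusted p = 0.00526, edgeR), and on plain library sizes the value was -0.035, not called. Syn3, the scarcest synapsin, had footprints at 38.1, 32.1 and 33.7 CPM in controls and at 29.2, 23.1 and 30.9 CPM in KO mice, a fall of 0.30 ± 0.11 (SE, adjusted p = 0.0264, edgeR). It was lost without control mouse 1 or KO mouse 4, with DESeq2 and on plain library sizes (adjusted p between 0.0787 and 0.271), and without KO mouse 4 its log2 change was -0.19. In RNA-seq it measured 19.7, 15.8, 17.5 and 16.5 CPM in controls and 16.7, 16.7, 16.2 and 15.6 CPM in KO mice, with overlapping groups and a log2 change of -0.088. In the exon columns it was at 33.8, 33.9, 30.9 and 30.1 CPM in controls and at 37.3, 36.8, 35.4 and 35.8 CPM in KO mice, all KO libraries higher but not called (0.17, adjusted p = 0.0894, edgeR), and Syn3 TE was called lower there (-0.47, adjusted p = 0.0318).

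The SV2 genes encode vesicle glycoproteins with the fold of transporters. Sv2a, the binding site of levetiracetam, had mRNA at 468, 454, 422 and 377 CPM in controls and at 464, 466, 537 and 474 CPM in KO mice, overlapping groups with a change of 0.17 ± 0.071 (SE, adjusted p = 0.152, edgeR) that was not called. Its footprints were at 980.0, 1016 and 977 CPM in controls and at 897, 873 and 858 CPM in KO mice, without overlap, a fall of 0.18 ± 0.025 (SE, adjusted p = 2.94e-09, edgeR). TE fell by 0.36 ± 0.088 (SE, adjusted p = 0.0147, edgeR), a call lost without KO mouse 4 (adjusted p = 0.0571, edgeR) or KO mouse 10 (0.0519). With the mouse number as a block TE was -0.20 (adjusted p = 0.00399), and within title prefixes the mRNA differed by -0.012, 0.037 and 0.34. Sv2b went the other way. The footprints stood at 597, 579 and 569 CPM in controls and at 637, 633 and 624 CPM in KO mice, all KO libraries higher, a rise of 0.12 ± 0.028 (SE, adjusted p = 0.000421, edgeR), while its mRNA was at 634, 623, 619.8 and 619 CPM and 666, 664, 689 and 639 CPM, with a log2 change of 0.091 ± 0.048 (SE, adjusted p = 0.270, edgeR). Sv2c footprints fell by 0.20 ± 0.063 (SE, adjusted p = 0.00960, edgeR), which was lost without mouse 3 or 4, with DESeq2 and on plain library sizes (adjusted p between 0.0713 and 0.0810).

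Syp encodes synaptophysin, the standard vesicle marker. Its mRNA was at 1004, 993, 1031 and 1044 CPM in controls and at 971, 948, 1022 and 977 CPM in KO mice, with KO mouse 5 among the controls. In ribosome profiling it measured 1839.5, 1855 and 1854 CPM in controls and 1782, 1813 and 1795 CPM in KO mice, all KO libraries lower, with a change of -0.042 ± 0.020 (SE, adjusted p = 0.118, edgeR) that was not called. Footprints of its relative Synpr fell by 0.16 ± 0.055 (SE, adjusted p = 0.0179, edgeR), and those of the small GTPase Rab3b by 0.16 ± 0.055 (SE, adjusted p = 0.0219, edgeR). The Synpr call was lost without mouse 2 or 3 and the Rab3b call without mouse 4 or 9, and both were lost with DESeq2 and on plain library sizes (adjusted p over these between 0.0555 and 0.215). Both values were -0.10 on plain library sizes. Rab3a, the main GTPase of the family at the vesicle, had a footprint change of 0.0024 ± 0.023 (SE, adjusted p = 0.952, edgeR).

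The 13 genes listed as calcium sensors were chosen by name, and calcium binding by each product was not examined. Among them, edgeR called none in mRNA (3 at an unadjusted p under 0.05) and none in TE (0 at an unadjusted p under 0.05). DESeq2 called none in either. With mice 1 to 4 alone 6 were called in mRNA, where 24.2% of all genes were called. The block by mouse number changed the TE result, where Syt5 (-0.29, adjusted p = 0.00108, edgeR), Syt7 (-0.35, adjusted p = 0.00129) and Syt13 (-0.37, adjusted p = 0.000105) were called lower. Without control mouse 8, Syt13 was called in TE too (adjusted p = 0.0424). Footprints rose for Syt1 and Syt4 and fell for Syt5 and Syt13, 30.8% of the role, near the 25.7% of all genes. Syt2, Syt3, Syt6, Syt7, Syt11, Syt12, Syt17, Doc2a and Doc2b were called in none of the 3 comparisons. With mice 1 to 4 alone, Syt6 mRNA rose by 0.47 (adjusted p = 0.000381, edgeR), against 0.20 in all mice. In footprints, Doc2a was called higher on plain library sizes (0.25, adjusted p = 0.00955, edgeR) and without KO mouse 2 (0.24, adjusted p = 0.0334), and Syt2 lower without control mouse 3 (-0.31, adjusted p = 0.0195).

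Syt1 encodes the main fast calcium sensor of forebrain synapses. Its footprints were at 1538, 1481 and 1504 CPM in controls and at 1598, 1643 and 1659 CPM in KO mice, without overlap, a rise of 0.12 ± 0.021 (SE, adjusted p = 5.96e-06, edgeR) that held under all 12 alternatives. The mRNA stood at 1052, 1036, 1052 and 1029.5 CPM in controls and at 1059, 1042, 1269.6 and 1019.7 CPM in KO mice, where KO mouse 5 stood apart from the 7 other libraries. Syt4, a member of the family that neuronal activity induces, had footprints at 415, 422 and 394 CPM in controls and at 463, 438 and 417 CPM in KO mice. The groups overlapped, and the rise of 0.097 ± 0.033 (SE, adjusted p = 0.0204, edgeR) was lost without mouse 2, 4 or 9 and with DESeq2 (adjusted p between 0.0637 and 0.266), with log2 changes of 0.059 without mouse 2 and 0.064 without mouse 9. In RNA-seq it measured 199.9, 206, 212 and 209.9 CPM in controls and 227, 221, 214 and 222 CPM in KO mice, all KO libraries higher but not called, with a log2 change of 0.095 ± 0.049 (SE, adjusted p = 0.262, edgeR). The falls of Syt5, with a log2 change of -0.11 ± 0.038 (SE, adjusted p = 0.0211, edgeR), and Syt13, with a log2 change of -0.12 ± 0.045 (SE, adjusted p = 0.0374, edgeR), in footprints were lost without mouse 1, 2 or 4, with DESeq2 and on plain library sizes, and Syt13 also without mouse 9.

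The SNARE genes and the factors that handle them held the largest called rise in footprints and 2 of the 6 largest falls. Of 10 members, footprints rose for Napa, Napb and Snap25 and fell for Cplx1, Cplx2 and Nsf, 60% of the role, which lay near the 56.0% of genes at 100 CPM or more. TE rose for Napb and Snap25 and fell for Vamp2 (30% of the role, against 7.44% of all genes). Stx1a, Vamp1 and Stxbp5 were called in none of the 3 comparisons, and on plain library sizes Stx1a was called higher in footprints (0.091, adjusted p = 0.0233, edgeR).

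Napa and Napb encode the alpha and beta forms of SNAP, the adaptors that bring the ATPase NSF to spent SNARE complexes. Napa mRNA was at 163, 161, 184 and 197 CPM in controls and at 202, 206, 194 and 210.5 CPM in KO mice, and control mouse 8 reached the KO range, with a log2 change of 0.21 ± 0.067 (SE, adjusted p = 0.0769, edgeR), called without that mouse (adjusted p = 0.00787) and with mice 1 to 4 alone. The footprints stood at 261, 266 and 261 CPM in controls and at 361, 368 and 378 CPM in KO mice, a rise of 0.49 ± 0.035 (SE, adjusted p = 4.72e-22, edgeR), to 141% of control. TE missed the threshold, with a log2 change of 0.28 ± 0.087 (SE, adjusted p = 0.0535, edgeR), and was called with DESeq2, on plain library sizes, without control mouse 3 and with the exon columns. Napb mRNA was at 383, 404, 383 and 397 CPM in controls and at 325, 331, 378 and 337 CPM in KO mice, all KO libraries lower but not called, with a log2 change of -0.19 ± 0.057 (SE, adjusted p = 0.0524, edgeR). It was called lower by DESeq2 (adjusted p = 0.0259) and by edgeR on plain library sizes (0.0319), without KO mouse 5 (0.00641), without control mouse 8 (0.0425) and with mice 1 to 4 alone. A rise of 0.20 ± 0.031 (SE, adjusted p = 1.21e-07, edgeR) was seen in its footprints, from 476, 474 and 466 CPM in controls to 522, 572 and 528 CPM in KO mice, without overlap. TE rose by 0.38 ± 0.074 (SE, adjusted p = 0.00239, edgeR), and held under all 19 alternatives. Nsf itself fell in footprints by 0.096 ± 0.020 (SE, adjusted p = 9.76e-05, edgeR), which was lost on plain library sizes, where the value was -0.036.

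Snap25 encodes the SNARE of the presynaptic membrane and had the most footprints of all members. In ribosome profiling it measured 3421, 3399 and 3310.0 CPM in controls and 3822, 3906 and 3772 CPM in KO mice, without overlap, a rise of 0.18 ± 0.018 (SE, adjusted p = 7.62e-15, edgeR). Its mRNA was at 1686, 1625, 1721 and 1756 CPM in controls and at 1479, 1501, 1816 and 1502 CPM in KO mice, where KO mouse 5 lay above every control and the other KO mice below them all. Without KO mouse 5 it was called lower (-0.18, adjusted p = 0.0191, edgeR). In the exon columns the mice other than KO mouse 5 overlapped, at 2099 to 2305 CPM in controls and 2162 to 2189 CPM in KO mice 2, 4 and 7, and the log2 change over all mice was 0.035 (adjusted p = 0.766). TE rose by 0.28 ± 0.079 (SE, adjusted p = 0.0304, edgeR), a call lost without mouse 1, 2, 4, 6, 7, 9 or 10, with the exon columns (log2 change 0.16) and with the close libraries summed (adjusted p between 0.0567 and 0.166, edgeR).

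Vamp2 encodes synaptobrevin 2, the vesicle SNARE. The mRNA stood at 73.7, 74.5, 83.6 and 74.9 CPM in controls and at 96.5, 90.2, 94.8 and 93.3 CPM in KO mice, all KO libraries higher, a rise of 0.29 ± 0.060 (SE, adjusted p = 0.0112, edgeR). The call was lost with the close libraries summed (adjusted p = 0.259, edgeR) and with mice 5 to 8 alone (0.319), with rises of 0.28 and 0.25. Its footprints were at 819.8, 822 and 834 CPM in controls and at 805, 812 and 794 CPM in KO mice, a change of -0.039 ± 0.025 (SE, adjusted p = 0.272, edgeR) that was not called. TE fell by 0.34 ± 0.070 (SE, adjusted p = 0.00437, edgeR), and held under all 19 alternatives. Stx1a, the syntaxin of the same complex, was at 268, 252, 262 and 283 CPM in control mRNA and 249, 249, 265 and 266 CPM in KO mRNA, and at 408, 426 and 439.6 CPM and 419, 453 and 433 CPM in footprints. The groups overlapped in both assays, and the footprint change was 0.032 ± 0.032 (SE, adjusted p = 0.519, edgeR).

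The complexins bind the partly zipped SNARE complex until calcium arrives. Footprints of Cplx1 were at 549, 562 and 558 CPM in controls and at 432, 444 and 442 CPM in KO mice, a fall of 0.34 ± 0.030 (SE, adjusted p = 1.58e-17, edgeR). Footprints of Cplx2 were at 711, 716 and 731 CPM in controls and at 543, 583 and 561 CPM in KO mice, a fall of 0.35 ± 0.028 (SE, adjusted p = 5.85e-20, edgeR). The paralogs thus fell to 78.9% and 78.2% of control without overlap, and both calls held under all 12 alternatives. Cplx1 mRNA was at 213, 214, 205 and 221 CPM in controls and at 193, 190.4, 188 and 192 CPM in KO mice, all KO libraries lower, with a change of -0.16 ± 0.049 (SE, adjusted p = 0.0624, edgeR) that was not called, while DESeq2 called it (adjusted p = 0.0355), as did edgeR with mice 1 to 4 alone. In the exon columns the groups overlapped and the log2 change was 0.056 (adjusted p = 0.762).

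Cplx2 mRNA was at 246, 264, 172 and 139 CPM in controls and at 134, 134, 142 and 131 CPM in KO mice. Control mice 1 and 3 stood far above control mice 6 and 8, and control mouse 8 lay within the KO range. The fall of 0.60 ± 0.15 (SE, adjusted p = 0.0256, edgeR) was lost without mouse 1, 2, 3, 4 or 7 (adjusted p between 0.0669 and 0.0783, edgeR), with mice 5 to 8 alone (log2 change -0.19, adjusted p = 0.502) and with the close libraries summed (-0.46, adjusted p = 0.359). Within title prefixes the log2 difference was -0.88, -0.97 and -0.18. The exon column held at least as many counts for every member in every library. There, Cplx2 was not called (log2 change 0.020, adjusted p = 0.885, edgeR), and the direction of the TE value turned from 0.24 (adjusted p = 0.488) to -0.36 (adjusted p = 0.00942). With the mouse number as a block, TE was 0.58 (adjusted p = 1.57e-15). Without control mouse 8, TE was 0.39 and was called higher too (adjusted p = 0.0339, edgeR). The column without a suffix held 15.6%, 16.8%, 11.5% and 10.3% of the exon counts in control mice 1, 3, 6 and 8, and 8.25% to 9.51% in KO mice. The exon counts outside that column, scaled to CPM, were 689 to 721 in controls and 705 to 831 in KO mice. The high mRNA of control mice 1 and 3 thus stood only in the counts of the column without a suffix, and what that column counts is not stated. For Cplx1 the shares were 27.3% to 32.9% in controls and 24.7% to 30.1% in KO mice, and with the exon columns its TE fell by 0.39 (adjusted p = 0.0486, edgeR). Cplx1 TE, at -0.19 ± 0.062 (SE, adjusted p = 0.0678, edgeR), was also called lower with the mouse number as a block (-0.20, adjusted p = 0.0177), with DESeq2 and without mouse 5 or 8.

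**Figure D3:**
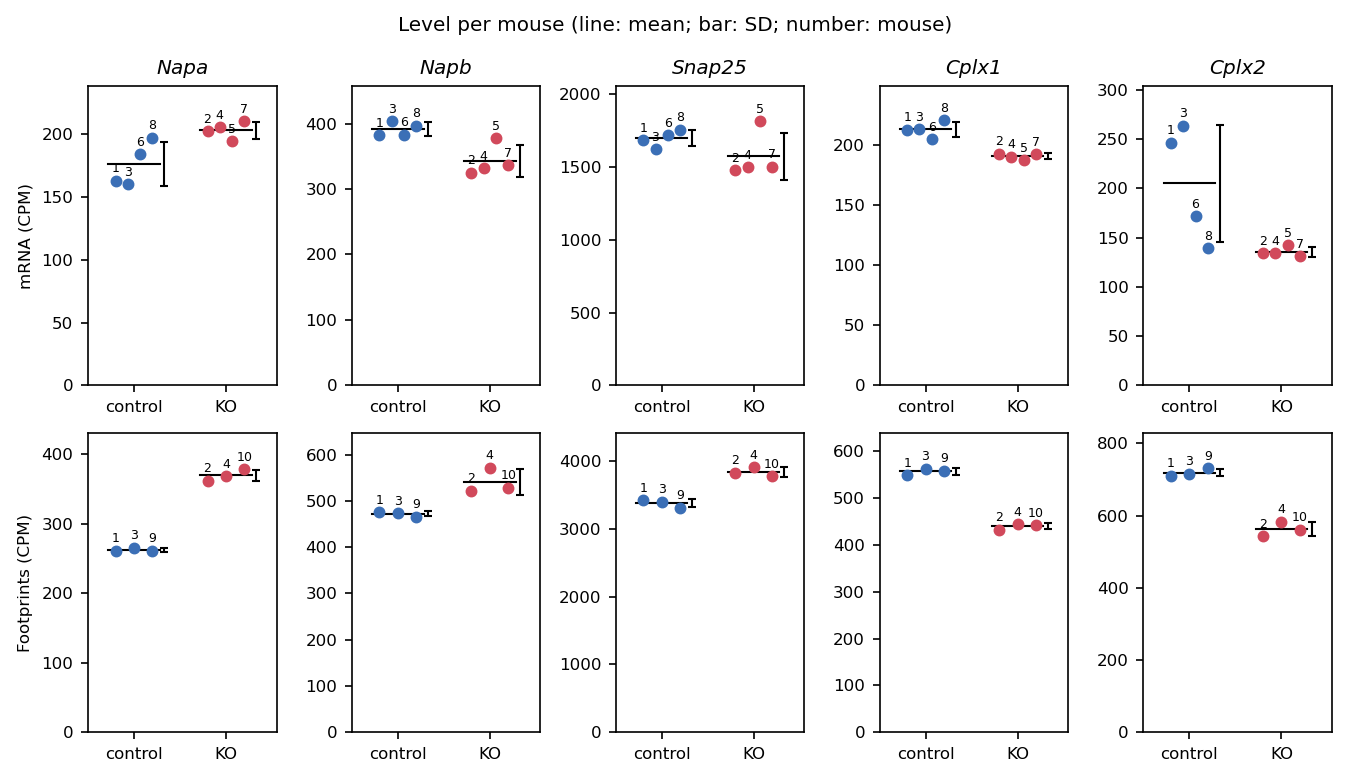
CPM per mouse for Napa, Napb, Snap25, Cplx1 and Cplx2 in mRNA (top) and footprints (bottom), with points numbered by mouse, a line for the mean and a bar for the SD. The footprint groups are separate for all 5 genes, while Cplx2 mRNA in controls runs from 139 to 264 CPM.

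**Figure D4:**
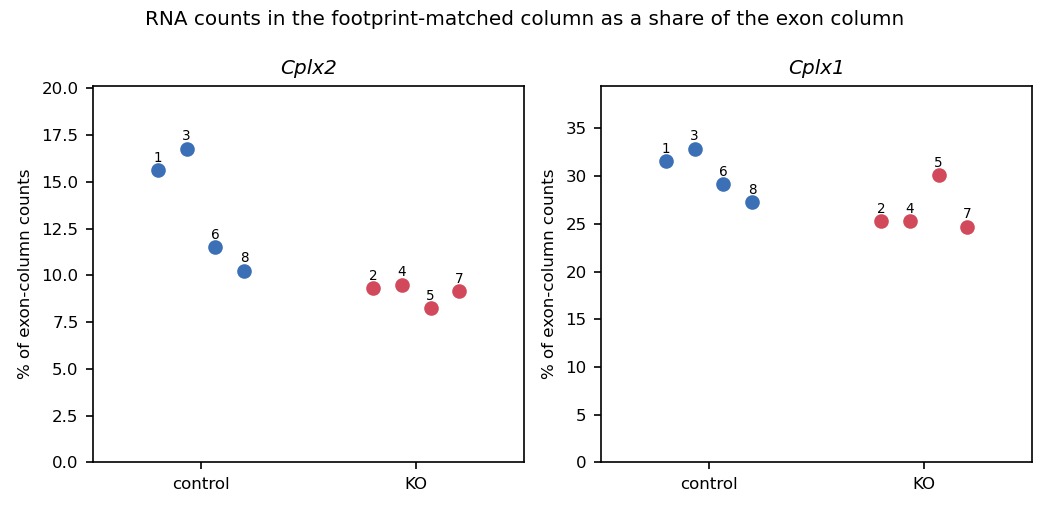
RNA counts in the column without a suffix as a percentage of the exon column's counts, per mouse, for Cplx2 (left) and Cplx1 (right). Control mice 1 and 3 sit at 15.6% and 16.8% for Cplx2, above the 6 other mice.

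Of the 6 endocytosis genes, 3 were called in footprints (50%, against 25.7% of all genes and 56.0% of genes at 100 CPM or more, which all 6 exceed), and edgeR called none in mRNA (3 at an unadjusted p under 0.05). Footprints fell for Amph, which encodes amphiphysin, with a log2 change of -0.21 ± 0.034 (SE, adjusted p = 2.44e-07, edgeR), and for Synj1, the phosphatase that strips clathrin coats, with a log2 change of -0.10 ± 0.028 (SE, adjusted p = 0.00339, edgeR). They rose for Sh3gl2, which encodes endophilin A1, with a log2 change of 0.087 ± 0.032 (SE, adjusted p = 0.0364, edgeR), a call lost without mouse 2, 4 or 9 and with DESeq2 (adjusted p between 0.157 and 0.312), and without control mouse 9 its value was 0.051. The Synj1 call was lost on plain library sizes, where the value was -0.041. Dnm1, the dynamin that cuts vesicles free, had an mRNA change of 0.26 ± 0.083 (SE, adjusted p = 0.0722, edgeR) and a footprint change of 0.018 ± 0.020 (SE, adjusted p = 0.563, edgeR). Its mRNA ran from 887 to 989.8 CPM in controls and from 1037 to 1050.2 CPM in KO mice 2, 4 and 7, with 1379 CPM in KO mouse 5. The mRNA was called higher by DESeq2 (adjusted p = 0.0424), on plain library sizes (0.0465), with the exon columns (0.0171) and with mice 1 to 4 alone, and the footprints on plain library sizes (0.077, adjusted p = 0.00118). The exon columns also called Sh3gl2 mRNA higher (0.19, adjusted p = 0.0372). Snap91, which encodes the clathrin adaptor AP180, and Bin1, whose product shapes membranes, were called in none of the 3 comparisons. With mice 1 to 4 alone, mRNA was called higher for Snap91 (0.15, adjusted p = 0.00341, edgeR) and lower for Amph (-0.17, adjusted p = 0.00541). TE was below 0 for all 6 genes of this role (median -0.14), and none was called (2 at an unadjusted p under 0.05). With the mouse number as a block, edgeR called Snap91 (-0.17, adjusted p = 0.0228) and Synj1 (-0.16, adjusted p = 0.0365) lower in TE. Synj1 was also called by DESeq2 (adjusted p = 0.0274), and by edgeR with RLE factors (0.0468), without control mouse 8 (0.0490) and with the close libraries summed (0.0484).

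The long active-zone genes were set beside 11 short vesicle genes (Syp, Synpr, Vamp1, Vamp2, Rab3a, Rab3b, Rab3c, Syt1, Syt2, Syt5 and Syt12). The split rests on general knowledge of these proteins, and no protein lengths were used here. The short list is not every short member: the complexins, whose footprints fell by 0.34 and 0.35, and Snap25, which rose by 0.18, are outside it, as is Syt13, which fell by 0.12. In footprints the medians were -0.17 for the 12 long and -0.042 for the 11 short genes, with 9 and 3 called lower and 0 and 1 called higher. The 3 of 11 short genes compare with 13.7% of all genes and 32.7% of genes at 100 CPM or more called lower. In TE they were -0.21 and 0.0061, with 4 and 1 called lower and none higher. In mRNA they were -0.014 and -0.10, and leaving out 1 mouse turned the sign of the first (-0.046 to 0.016) and moved the second to -0.041 (without control mouse 8). On plain library sizes, which shifted all genes to a median of 0.066 in footprints and 0.056 in TE, the long genes lay at -0.12 and -0.14 and the short genes at 0.017 and 0.073. The gap between the lists kept its direction there, but the sign of the short list in footprints did not. Per library, the median deviation of the long genes from their mean over all footprint libraries was 0.083, 0.099 and 0.070 in control mice 1, 3 and 9 and -0.076, -0.081 and -0.11 in KO mice 2, 4 and 10. For the short genes it was 0.053, 0.014 and 0.024 in controls and -0.033, -0.039 and -0.022 in KO mice. The genes of each list were chosen with earlier results known, and the difference between the lists was not tested.

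The lists also stood apart without reference to genotype. In control mice, the log2 ratio of footprint CPM to mRNA CPM had a median of -0.71 over the 12 long genes and 0.86 over the 11 short genes, against -0.13 over all 12145 genes. The values per gene that follow are for the columns without a suffix, unless the exon columns are named. Of the long genes, 11 lay below the median of all genes, the exception being Erc1 at -0.089 ± 0.19 (SD, 4 mRNA and 3 footprint libraries), and of the short genes none did. The lowest members were Unc13c at -3.07 ± 0.19, Rims2 at -1.79 ± 0.17 and Unc13b at -1.70 ± 0.18 (SD). The highest were Vamp2 at 3.43 ± 0.086, Cplx2 at 1.86 ± 0.44, Syn1 at 1.75 ± 0.23 and Rab3a at 1.67 ± 0.064 (SD), so the 3 that follow Vamp2 did not differ beyond their spread. Bsn and Pclo lay at -0.31 ± 0.098 and -0.30 ± 0.13 (SD). With the exon columns for mRNA the medians drew together, at -0.27 and 0.28, against -0.038 over all genes. Genes of both lists changed sides there. Rab3c, at 704 to 784 CPM in control exon columns and 223 to 240 CPM in control footprints, lay below that median of all genes. Pclo, at 452 to 535 CPM and 586 to 593 CPM, lay above it. For Vamp2, the column without a suffix held only 10.4% to 11.8% of the exon counts, and for Rims1 at least 99.8%. In the control exon columns Vamp2 was at 332 to 384 CPM and Syn1 at 203 to 259 CPM. With footprints at 820 to 834 CPM and 1078 to 1089 CPM, Syn1 lay above Vamp2 there. Cplx2 was at 766 to 851 CPM in those columns, above its 711 to 731 CPM in footprints, and was no longer among the highest. The size of the gap and the order of single genes thus differed between the 2 kinds of column.

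**Figure D5:**
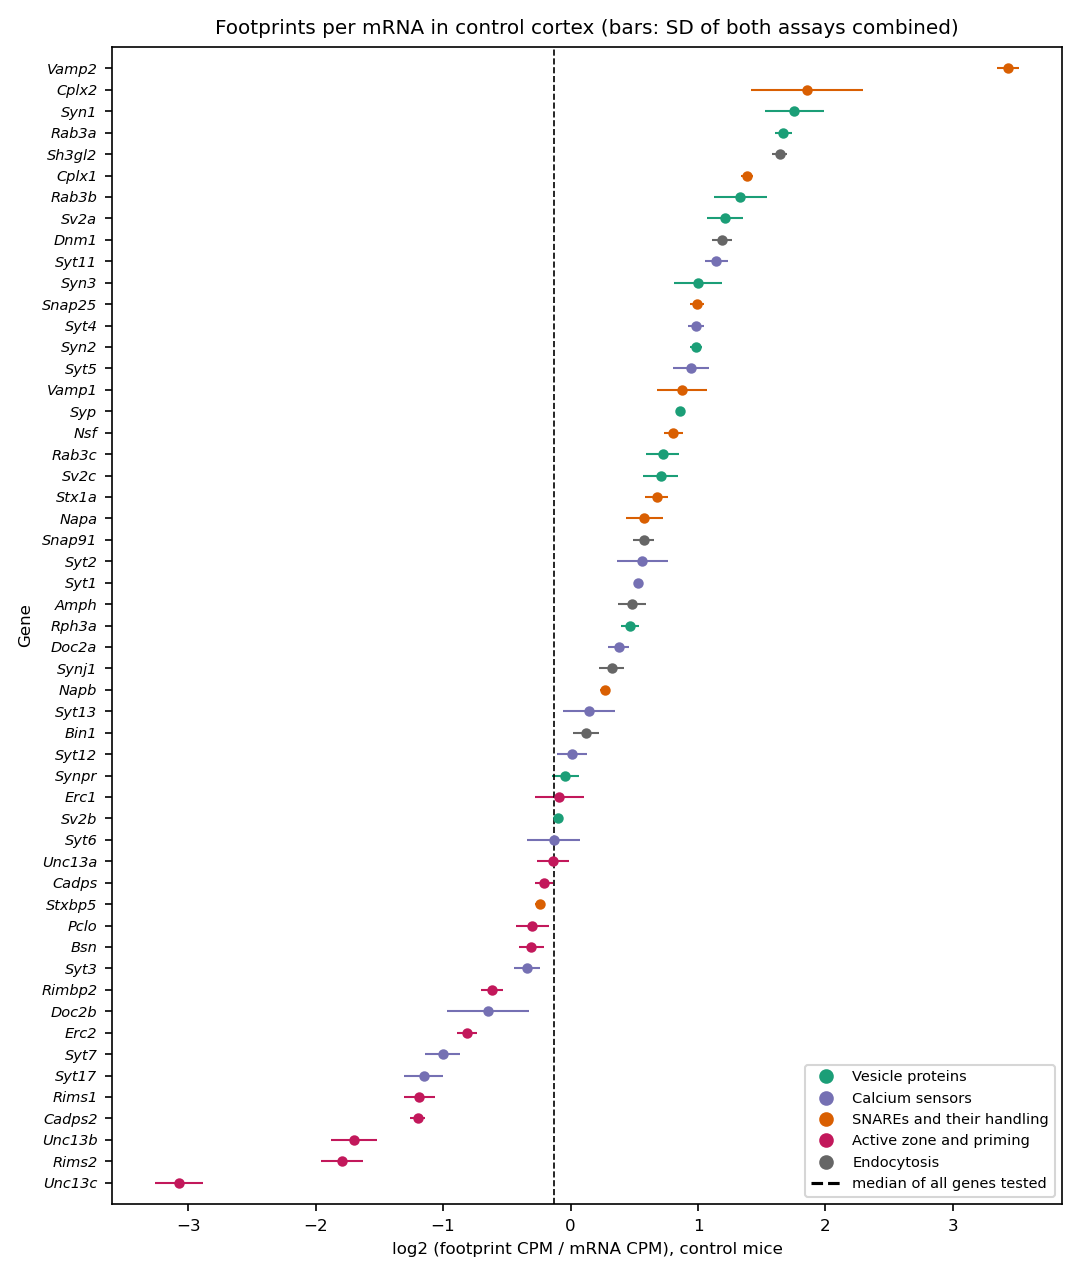
Log2 ratio of footprint CPM to mRNA CPM in control mice for each member, coloured by role, with bars for the SD of both assays combined and a dashed line at the median of all genes, -0.13. All mRNA values are from the columns without a suffix. The 5 lowest genes are active-zone or priming genes, with calcium sensors such as Syt17 (-1.15) following among them, and Vamp2 stands alone at the top.

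Other genes of the same pathway were described from a list of 72 symbols, 70 of which were tested. In footprints 17 rose and 17 fell (48.6% called, against 25.7% of all genes and 56.0% of genes at 100 CPM or more), with a median of -0.023. In mRNA 6 rose and 3 fell (12.9% called, against 7.51% of all genes), and in TE 4 rose and 6 fell (14.3%, against 7.44%), with medians of 0.017 and -0.046. Cltb, a clathrin light chain, rose in footprints by 0.74 ± 0.055 (SE, adjusted p = 2.16e-21, edgeR). Ppfia1, a liprin, fell by 0.58 ± 0.13 (SE, adjusted p = 2.20e-04, edgeR). Itsn1, an endocytic scaffold, fell by 0.49 ± 0.060 (SE, adjusted p = 7.14e-11, edgeR), and Eps15, a clathrin adaptor, rose by 0.42 ± 0.041 (SE, adjusted p = 6.16e-15, edgeR). Rab5a, a GTPase of early endosomes, rose by 0.39 ± 0.062 (SE, adjusted p = 2.69e-07, edgeR). Syt9 had the largest called fall of the list, 0.84 ± 0.31 (SE, adjusted p = 0.0329, edgeR), with the largest SE of the genes named here. Its TE, at -0.67 ± 0.32 (SE, adjusted p = 0.217, edgeR), was not called. Alternative fits are given for members only, so how far the Syt9 call holds was not tested.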

How the data were processed

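The authors deposited 1 table of whole-number counts per gene, with no normalization. Per the submitters' processing notes, Bowtie2, STAR 2.5, featureCounts and Subread 1.4.6 and the builds mm9 and mm10 were used, in an order and role that are not given in the sources used here, like the region and strand counted. Per the labels' protocols, footprint libraries from monosomes used no ligation step, and total RNA was depleted of ribosomal RNA and made into strand-specific libraries. In 2849 genes the columns without the exon suffix hold no value.

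Counts were tested between genotypes with edgeR 4.0.16 (R 4.3.3; quasi-likelihood F test with legacy off, TMM, filterByExpr at a minimum count of 10, two-sided, Benjamini-Hochberg over all genes tested). TE was the interaction of genotype and assay over all 14 libraries. SEs were derived from the F statistic. DESeq2 1.42.0 was an alternative. The fits were tested on simulated data, and no result of that test is given here. CPM values are normalized counts. Groups and mouse numbers came from the labels. RNA and footprint libraries with 1 mouse number are from 1 animal, yet their deviations from the group means correlated at 0.0040, 0.015, 0.047 and -0.0050 across 8923 genes in mice 1 to 4.

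Members and lists were chosen with earlier results of these data known. Values per library are given for members called in mRNA or TE, the 6 largest rises and the 6 largest falls called in footprints, and Bsn, Pclo, Syp, Vamp2, Syt1, Snap25 and Stx1a. The other pathway genes named are the 6 called with the largest changes in footprints.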

Additional observations from a re-analysis of the deposited data

Results flagged for a closer look

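Each member's mRNA was examined in the 4 controls and in the 4 KO mice for a library far from the others, 106 groups in all. In 13 of them the gap from 1 library to the nearest, divided by the range of the 4 libraries, passed Dixon's 95% critical value for 4 samples. Chance flags about 1 in 20 independent groups, or 5.3 of 106, but the members share libraries. KO mouse 5 was the distant library in 11, always as the highest, and KO mice 2, 4 and 7 lie close together in general. The same library stood apart in summed marker levels. It was at 525 CPM for immediate early genes against 1172 to 1209 in the other KO mice, at 131 for endothelium against 206 to 212, and at 1885 for astrocytes against 1645 to 1667. It was at 957 for inhibitory neurons against 819 to 848, at 3411 for excitatory neurons against 3137 to 3175, and at 4271 for oligodendrocytes against 4558 to 4598. Their part in the values below was not tested.

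KO mouse 5 stood above the other KO mice in Dnm1, at 1379 CPM against 1037 to 1050.2 (gap 0.963 of the range), Snap25, at 1816 against 1479 to 1502 (0.930), Syn1, at 523 against 418 to 425 (0.930), and Sh3gl2, at 194 against 144 to 148 (0.920). The same held for Nsf, at 1161 CPM against 1005 to 1020.4 (0.901), Amph, at 273 against 249 to 252 (0.882), Rph3a, at 438 against 346 to 358 (0.871), and Sv2a, at 537 against 464 to 474 (0.856). It also held for Syt1, at 1270 CPM against 1020 to 1059 (0.844), Sv2c, at 68.3 against 55.6 to 57.6 (0.840), and Syt11, at 432 against 365 to 375 (0.838). For Syn1 the column without a suffix held 87.2% of the exon counts in KO mouse 5 against 69.6% to 70.6% in the other KO mice, and in the exon columns that mouse was not the highest, at 325 CPM against 326 to 339.5. In the exon columns it was still the highest KO library for the 10 others. Among controls, mouse 3 was low in Syn2, at 316 CPM against 333 to 334 (0.913), and mouse 6 was high in Vamp2, at 83.6 against 73.7 to 74.9 (0.879). Without KO mouse 5, 9 members were called in mRNA (4 higher, 5 lower), in place of 7. The share of all genes called rose too, to 10.7% from 7.51%.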

How the results depend on the processing

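With 1 mouse left out in turn, 4 to 10 members were called in mRNA, 20 to 27 in footprints and 6 to 13 in TE. The shares of all genes called in these fits were 2.74% to 13.2%, 20.7% to 23.4% and 3.05% to 10.1%. The mRNA count was 0 with the close libraries summed, 2 with mice 5 to 8 alone and 28 with mice 1 to 4 alone, the last chosen after seeing the data. The footprint count was 19 on plain library sizes, of which 15 were among the 30, and 18 with DESeq2. The TE count was 17 with the mouse number as a replicate block, the pairing that the labels give. The title prefix as a block gave 7, 30 and 8, and edgeR's legacy estimate, also added after seeing the data, gave 7, 30 and 9.

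Without 1 mouse in turn, the median of the long active-zone genes ran from -0.19 to -0.13 in footprints, from -0.24 to -0.18 in TE and from -0.046 to 0.016 in mRNA, where its sign is not settled. That of the short vesicle genes ran from -0.14 to -0.041 in mRNA, from -0.046 to -0.036 in footprints and from -0.014 to 0.045 in TE. On plain library sizes the medians were -0.12 and -0.14 for the long genes in footprints and TE, and 0.017, reversed, and 0.073 for the short genes. With the exon columns, footprints per mRNA in controls were -0.27 for the long and 0.28 for the short genes. The exon columns also reversed Cplx2, to 0.020 in mRNA and -0.36 in TE. Over all single members and alternatives, 2315 values kept their direction and their side of the threshold, 112 lost a call, 66 gained one, 2 were the reversals of Cplx2 and 102 changed sign with no call in either fit; the cause was not tested. A planned comparison by protein length was not run. Mice per group, 4 in mRNA and 3 in footprints, limit the precision, and low counts limit Unc13c and Syn3. Where nothing says that libraries came from separate preparations, p-values measure the spread between these libraries.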
